A study of Mus musculus with 6 samples.

Results

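The genes described here encode the ATG8 proteins of mouse fibroblasts and the enzymes that attach them to membranes. They are 10 genes among 12393 measured, namely Map1lc3a, Map1lc3b, Gabarap, Gabarapl1 and Gabarapl2 for the ATG8 proteins and Atg4b, Atg7, Atg3, Atg12 and Atg5 for the conjugation machinery. They were chosen by name, and every probe set annotated to exactly 1 of these symbols was taken, which gave 22 of 20380 probe sets and left no gene out. The cells were mouse embryonic fibroblasts (MEFs), a connective tissue cell type cultured from embryos, labelled as a cell line and as wild type. MEFs starved for 6 h were hybridised to 3 arrays, and control MEFs kept in normal medium to another 3. The labels name neither the nutrients or serum withdrawn nor the strain or the age of the embryos. The comparison asks how starvation changes transcript levels.

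ATG8 proteins are small ubiquitin-like proteins that coat the growing autophagosome, the membrane sac that carries cell contents to the lysosome. The protease ATG4B trims their end, the E1-like enzyme ATG7 activates them, the E2-like enzyme ATG3 carries them, and the ATG12–ATG5 conjugate, bound to ATG16L1, directs their attachment to the lipid phosphatidylethanolamine. The LC3 branch (Map1lc3a and Map1lc3b) and the GABARAP branch (Gabarap, Gabarapl1 and Gabarapl2) both bind cargo receptors, and lipid-bound LC3B is the usual marker of autophagosomes. Array signals report transcript levels, not lipid attachment or the rate of autophagy.

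Values are log2 array signals as deposited, a difference is the starved mean less the control mean on that scale, and means are given ± SD over 3 arrays per group. The signals were normalized to nearly the same distribution on every array, and array medians lay between 6.73 and 6.81. The median difference of all 20380 probe sets was −0.04, and the median SD of a probe set was 0.11 within starved and 0.08 within control arrays. Arrays of 1 group correlated at 0.996 to 0.998 across probe sets and arrays of different groups at 0.981 to 0.984, so no array stood apart from its group. All 12 fibroblast markers were measured, 8 rose, 2 fell and 2 did not pass, and their summed linear signal was 70394 to 71078 in starved arrays and 57003 to 59013 in control arrays. Of 9 macrophage and blood cell markers 1 rose, 2 fell and 6 did not pass, with a summed linear signal of 351 to 394 in starved arrays and 419 to 438 in control arrays. Of 6 epithelial markers Cdh1 rose by 0.91 (4.36 ± 0.13 in starved and 3.44 ± 0.17 in control cells) and 5 did not pass, and of 5 endothelial markers Pecam1 (−0.27) and Kdr (−0.27) fell and 3 did not pass. None of them had a mean level above 5.11, and their summed linear signals were 129 to 141 in starved against 135 to 140 in control arrays for the epithelial and 68.4 to 73.4 in starved against 74.6 to 80.3 in control arrays for the endothelial list. The part of these markers in the results below was not tested. The array titles name biological replicates without saying that cultures were separate, so the p-values rest on a spread among samples that may be technical.

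Poly-A spike-ins, foreign transcripts added to the RNA, averaged 0.43 higher in starved than in control arrays, and hybridization spike-ins averaged 0.19 higher. Arrays were also centred on the poly-A spike-ins (called the poly-A scale below) or on the hybridization spike-ins (the hybridization scale), which lowers every difference by 0.43 or by 0.19 and moves the median of all probe sets to −0.47 or −0.23. Of all calls, 49.8% were rises in the deposited scaling, 41.7% with arrays centred on their medians, 21.3% on the hybridization scale and 7.78% on the poly-A scale. Directions below are those of the deposited scaling, relative to all measured transcripts, and fewer cells of a kind cannot be told apart from less RNA per cell.

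Starved MEFs had more Gabarapl1 and Map1lc3a transcript, more Map1lc3b transcript by 2 of its 4 probe sets, and less Atg3 transcript. Atg7 (2 of 3 probe sets) and Atg12 (1 of 3) rose by smaller amounts. Atg5 fell by 1 of its 3 probe sets, and this fall was called under every scaling. The 2 probe sets of Atg4b were called in opposite directions. The differences of Atg7 and Atg12 lay below 0 on the poly-A scale, where Map1lc3a and 1 of the 2 risen Map1lc3b probe sets also lost their call. Gabarapl1, of the GABARAP branch, rose about 2.05-fold by 1 probe set, and Atg3, the enzyme that carries every ATG8 protein, fell to a level 1.48-fold lower than in control cells. Of the 22 probe sets 13 passed limma's test at an adjusted p of 0.05, against 40.9% of all 20380 probe sets. Among them 9 rose and 4 fell, against 20.4% and 20.5% of all probe sets, and the other 9 did not pass. On the hybridization scale 5 rose and 5 fell, where 12.7% of all probe sets rose and 46.8% fell, and on the poly-A scale 3 rose and 10 fell, where 6.23% of all probe sets rose and 73.8% fell. The starved arrays all lay above the control arrays for 11 of the 22 and all below for 4, against 24.5% and 27.7% of all probe sets, which together make 52.2%. The median difference of the 22 probe sets was 0.21, and their median size regardless of sign was 0.31, against 0.20 for all probe sets. Counted as genes by their brightest probe sets, 4 of 10 rose, 2 fell and 4 did not pass, where 22.1% of all genes rose, 22.0% fell and 44.1% did either.

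**Figure D1:**
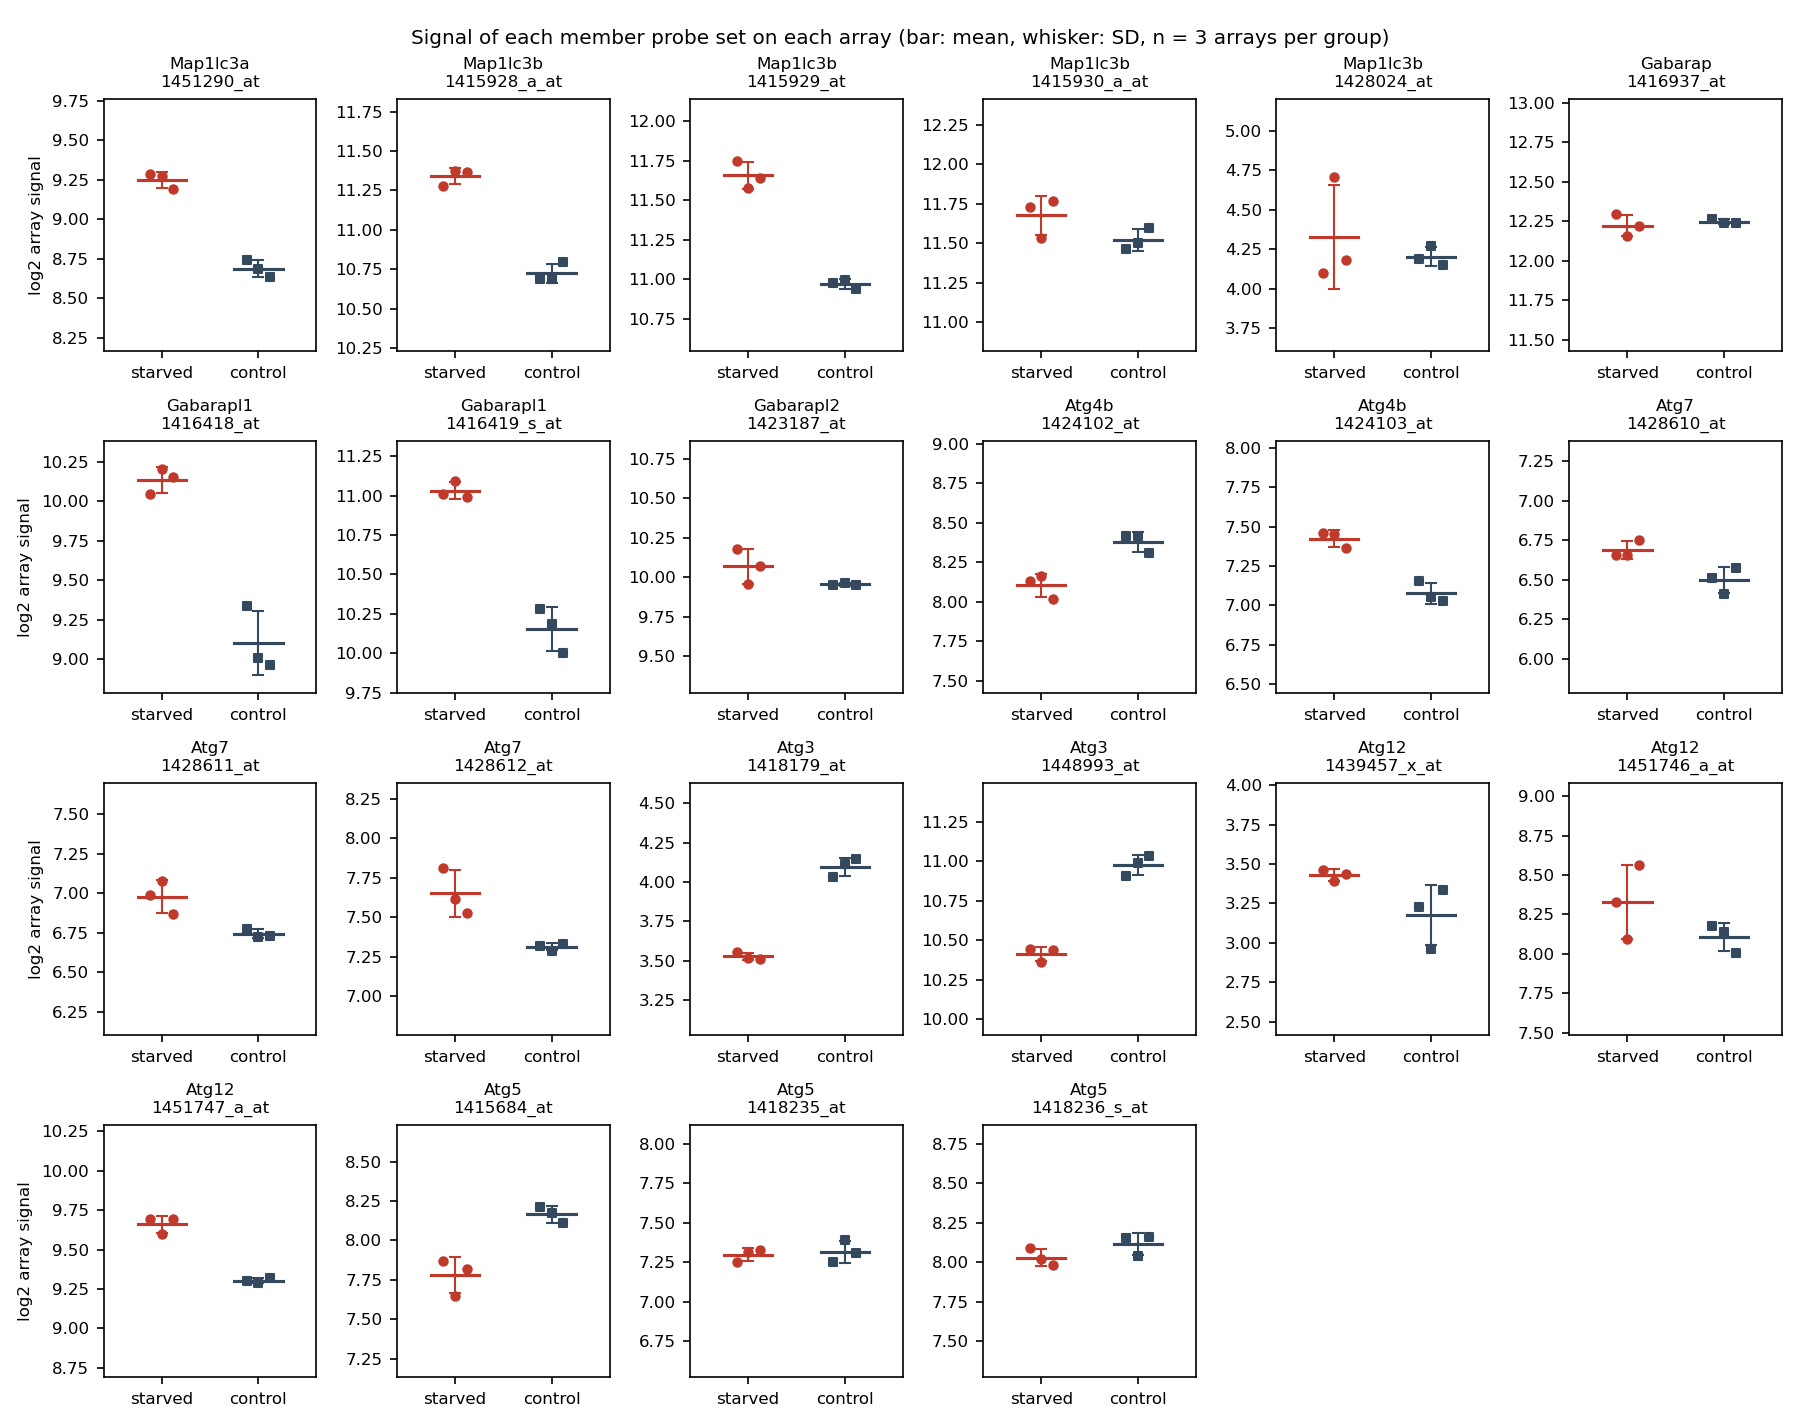
Log2 array signal (y axis, each panel 1.6 units high) of the 22 probe sets on the 3 starved (red circles) and 3 control arrays (blue squares), with bars for the mean and whiskers for the SD. The starved arrays all lie above the control arrays for 11 probe sets, among them both of Gabarapl1, and all below for 4, among them both of Atg3.

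The DNA just upstream of 3 of these genes is shown because they had the largest called rises and falls among the members with a sequence. RefSeq start sites of the GRCm38.p6 build gave a window for 8 of the 10 members, and the 250 bases upstream of the start were searched on both strands. The motifs were CACGTG, the core bound by TFEB, MITF, USF and MYC proteins, GTAAACA, a core bound by FOXO and other forkhead proteins, TGATGCAAT, a composite element bound by ATF4 with C/EBP proteins, and GGGCGG, the core bound by SP1. The only matches in member windows that overlapped were a pair of GGGCGG in Atg4b, which share 1 base. Capitals mark the matches in the following windows, each on the plus strand and written 5′ to 3′. They lie at chr6:129532942-129533191 for Gabarapl1, chr8:121590188-121590437 for Map1lc3b and chr16:45158579-45158828 for Atg3.
Gabarapl1: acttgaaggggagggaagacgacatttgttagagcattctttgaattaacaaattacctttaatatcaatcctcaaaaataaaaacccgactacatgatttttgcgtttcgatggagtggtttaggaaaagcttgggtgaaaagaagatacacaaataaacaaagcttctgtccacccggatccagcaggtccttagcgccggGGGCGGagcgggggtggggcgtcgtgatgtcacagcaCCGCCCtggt
Map1lc3b: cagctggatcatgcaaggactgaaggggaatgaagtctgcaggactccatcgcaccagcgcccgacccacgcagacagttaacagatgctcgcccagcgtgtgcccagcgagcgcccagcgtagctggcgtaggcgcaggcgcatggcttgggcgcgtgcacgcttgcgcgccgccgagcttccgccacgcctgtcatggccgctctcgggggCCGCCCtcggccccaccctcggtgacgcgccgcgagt
Atg3: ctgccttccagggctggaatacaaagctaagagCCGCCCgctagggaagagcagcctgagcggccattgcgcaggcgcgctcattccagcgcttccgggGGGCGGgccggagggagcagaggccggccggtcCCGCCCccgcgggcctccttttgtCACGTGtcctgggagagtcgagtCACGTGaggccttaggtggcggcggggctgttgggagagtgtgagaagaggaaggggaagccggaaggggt

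The Atg3 window held CACGTG at 2 places, 94 to 89 and 71 to 66 bases upstream of the start, and the windows of Gabarapl1 and Map1lc3b held none. Atg7 (132 to 127 bases upstream) and Atg5 (14 to 9 bases upstream) each held it at 1 place, so 3 of 8 members did, against 6.02% of all 32851 windows. Among genes of the whole table with a window, 7.39% of 2232 that rose, 9.34% of 2196 that fell and 7.24% of 5459 that did not pass held CACGTG. The SP1 core GGGCGG was found in 6 of the 8 members and in 32.7% of all windows, and in 64.3% of genes that rose, 56.1% of those that fell and 47.4% of those that did not pass. GTAAACA and TGATGCAAT were in 0 of the 8, against 3.17% and 0.167% of all windows. The motifs are described only as letters in these windows.

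Gabarapl1 was the member with the largest rise. Its probe set 1416418_at read 10.05, 10.20 and 10.16 on starved arrays, against 9.33, 9.01 and 8.96 on control arrays. Every starved array lay above every control array, and control replicate 1 was the highest of the control arrays. The means were 10.14 ± 0.08 in starved and 9.10 ± 0.20 in control cells, a difference of 1.03 (SE 0.11, 95% interval 0.79 to 1.27, adjusted p = 7.12e-05). The probe set 1416419_s_at, whose type can share probes with other transcripts, read 11.01, 11.09 and 10.99 on starved arrays and 10.28, 10.19 and 10.0003 on control arrays. Again the groups did not overlap, and the difference of 0.88 (SE 0.09, 95% interval 0.68 to 1.07, adjusted p = 5.90e-05) lay near that of the first. Counted from the largest rise among 20380 probe sets, 1416418_at was number 436 and 1416419_s_at number 678. Both remained called on the poly-A scale, at 0.61 and 0.45.

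The other members of the GABARAP branch gave no call. Gabarap, the founding member of the branch, read 12.29, 12.16 and 12.22 on starved arrays, against 12.26, 12.24 and 12.24 on control arrays. The groups overlapped, with a difference of −0.02 (SE 0.07, 95% interval −0.18 to 0.13, adjusted p = 0.809). Gabarapl2, also known as GATE-16, read 10.18, 9.96 and 10.07 on starved and 9.95, 9.96 and 9.95 on control arrays. Starved replicate 2 lay within the control range and the other starved arrays above it, and the difference was 0.11 (SE 0.08, 95% interval −0.06 to 0.29, adjusted p = 0.276). On the poly-A scale both were called lower, Gabarap at −0.45 and Gabarapl2 at −0.31. In the deposited scaling the intervals of Gabarap and Gabarapl2 lie wholly below those of both Gabarapl1 probe sets, which is a description and not a test of the differences between genes.

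Map1lc3a, which encodes LC3A, has 1 probe set here, 1451290_at. It read 9.29, 9.27 and 9.19 on starved arrays, against 8.74, 8.69 and 8.64 on control arrays, with no overlap. The means of 9.25 ± 0.05 in starved and 8.69 ± 0.05 in control cells differ by 0.56 (SE 0.07, 95% interval 0.40 to 0.72, adjusted p = 0.00023), a fold of 1.48. On the poly-A scale the call was lost (0.14, adjusted p = 0.215).

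Map1lc3b, which encodes LC3B, has 4 probe sets that did not read alike. The probe set 1415929_at read 11.75, 11.58 and 11.64 on starved arrays, against 10.98, 10.998 and 10.94 on control arrays. It rose by 0.69 without overlap (SE 0.07, 95% interval 0.52 to 0.85, adjusted p = 9.20e-05), a fold of 1.61. The probe set 1415928_a_at read 11.28, 11.37 and 11.37 on starved arrays and 10.69, 10.69 and 10.80 on control arrays, and it rose by 0.62 (SE 0.07, 95% interval 0.45 to 0.78, adjusted p = 0.000152). On the poly-A scale 1415929_at was still called (0.26) and 1415928_a_at was not (0.19, adjusted p = 0.101).

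The 2 further probe sets of Map1lc3b did not pass. The brightest, 1415930_a_at, read 11.73, 11.53 and 11.77 on starved arrays, against 11.46, 11.50 and 11.60 on control arrays. Starved replicate 2 lay among the control arrays, and the difference was 0.16 (SE 0.09, 95% interval −0.04 to 0.35, adjusted p = 0.177). The dimmest, 1428024_at, read 4.10, 4.71 and 4.18 on starved arrays and 4.19, 4.27 and 4.15 on control arrays. Its level lay at percentile 22.5 of all probe sets, starved replicate 2 was its highest array, and the difference was 0.13 (SE 0.14, adjusted p = 0.523) and −0.064 without that array. On the poly-A scale 1415930_a_at (−0.27, adjusted p = 0.0483) and 1428024_at (−0.30, adjusted p = 0.0315) were called lower, opposite to 1415929_at. The annotation cites the same accession for 1415928_a_at, 1415929_at and 1415930_a_at and another for 1428024_at.

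Among the 3 bright probe sets of Map1lc3b, the measured response of 1415930_a_at was smaller than those of 1415928_a_at and 1415929_at. Within arrays, the response of 1415929_at exceeded that of 1415930_a_at by 0.53, and that of 1415928_a_at exceeded it by 0.46. The exact two-sided permutation test gave p = 0.1 for each, the smallest that 3 arrays against 3 can give (0.257 after Benjamini-Hochberg adjustment over 18 pairs of member probe sets). The pair that rose, 1415928_a_at and 1415929_at, differed by −0.07 (exact p = 0.6). A table that keeps 1 probe set a gene by brightness takes 1415930_a_at and so lists Map1lc3b as not passed, whereas the mean of its 4 probe sets rose by 0.40 (SE 0.06, adjusted p = 0.000608 over all genes averaged in this way).

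**Figure D2:**
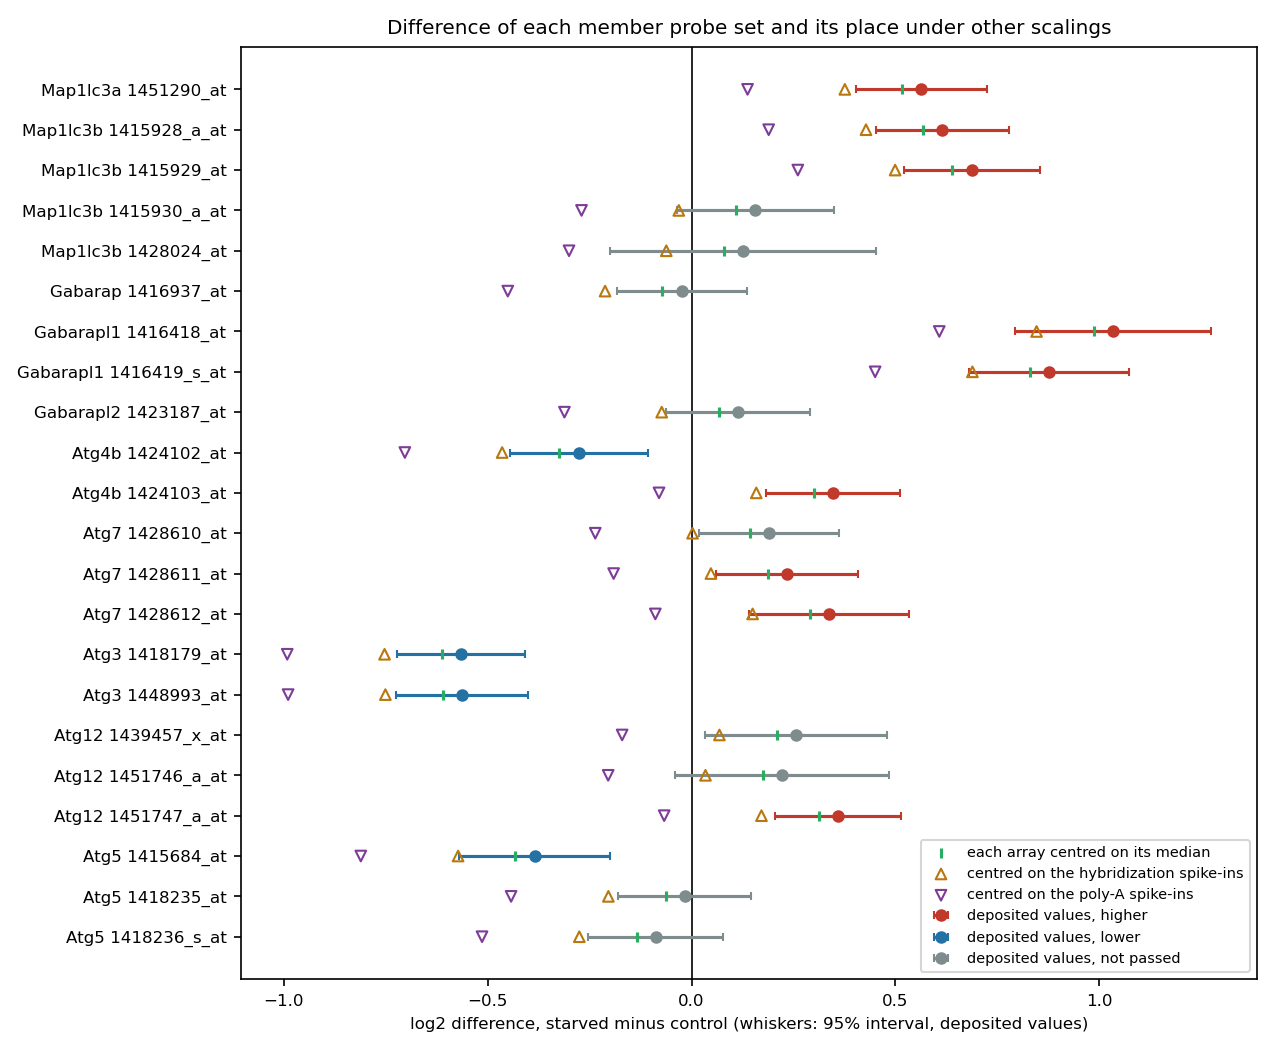
Log2 difference, starved minus control (x axis), of the 22 probe sets with 95% intervals (filled circles, coloured by call), and the same difference with arrays centred on their medians (green ticks), the hybridization spike-ins (upward triangles) or the poly-A spike-ins (downward triangles). Both Gabarapl1 probe sets and 1415929_at of Map1lc3b stay called above 0 under all 4 scalings. Both Atg3 probe sets, 1415684_at of Atg5 and 1424102_at of Atg4b stay called below 0 under all 4. Atg7, Atg12 and the rising Atg4b probe set lie below 0 on the poly-A scale.

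Atg3 encodes the E2-like enzyme that passes ATG8 proteins to the lipid, and both of its probe sets fell. The brighter, 1448993_at, read 10.44, 10.36 and 10.44 on starved arrays, against 10.91, 10.99 and 11.03 on control arrays. All starved arrays lay below all control arrays, with means of 10.41 ± 0.05 in starved and 10.98 ± 0.06 in control cells and a difference of −0.56 (SE 0.07, 95% interval −0.73 to −0.40, adjusted p = 0.000243). The dim probe set 1418179_at read 3.55, 3.52 and 3.51 on starved arrays and 4.03, 4.11 and 4.14 on control arrays, a difference of −0.57 (SE 0.07, 95% interval −0.72 to −0.41, adjusted p = 0.0002). The level of 1418179_at lay at percentile 15.8 of all probe sets, so the size of the fall rests on 1448993_at. The fall was called under every scaling, at −0.99 for each probe set on the poly-A scale.

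Atg7 encodes the E1-like enzyme that activates both ATG8 proteins and ATG12. All 3 of its probe sets had starved arrays above control arrays, and 2 passed the test. The brightest, 1428612_at, read 7.81, 7.61 and 7.53 on starved arrays, against 7.32, 7.29 and 7.33 on control arrays, a rise of 0.34 (SE 0.09, adjusted p = 0.0121). The probe set 1428611_at read 6.99, 7.07 and 6.87 on starved and 6.78, 6.72 and 6.73 on control arrays, a rise of 0.23 (SE 0.08, adjusted p = 0.0364). The call of 1428611_at was lost without starved replicate 1 (0.23), starved replicate 2 (0.19), control replicate 1 (0.25), control replicate 2 (0.22) or control replicate 3 (0.23). The probe set 1428610_at read 6.66, 6.65 and 6.75 on starved and 6.51, 6.41 and 6.57 on control arrays, and its difference of 0.19 did not pass (adjusted p = 0.0739). On the poly-A scale the differences of all 3 were below 0, between −0.24 and −0.09, and none passed. Both calls were also lost on the hybridization scale, with 0.15 for 1428612_at and 0.047 for 1428611_at.

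Atg12 encodes the ubiquitin-like protein of the conjugate that directs lipid attachment. Its brightest probe set, 1451747_a_at, read 9.69, 9.60 and 9.69 on starved arrays, against 9.30, 9.29 and 9.32 on control arrays. It rose by 0.36 without overlap (SE 0.07, 95% interval 0.20 to 0.51, adjusted p = 0.00257) and lost its call on the hybridization scale (0.17) and the poly-A scale (−0.07). The probe set 1451746_a_at read 8.33, 8.10 and 8.56 on starved and 8.18, 8.14 and 8.005 on control arrays, with overlap and a difference of 0.22 (SE 0.12, adjusted p = 0.16). The very dim 1439457_x_at read 3.46, 3.39 and 3.44 on starved and 3.23, 2.96 and 3.33 on control arrays, a difference of 0.26 (SE 0.10, adjusted p = 0.066). The difference of 1451746_a_at passed without starved replicate 2 (0.34, adjusted p = 0.033), the lowest of its starved arrays, and that of 1439457_x_at passed without control replicate 3 (0.34, adjusted p = 0.0346). The first was 0.10 (adjusted p = 0.437) with starved replicate 3 left out, and the second was 0.15 (adjusted p = 0.223) with control replicate 2 left out.

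Atg5, the partner to which ATG12 is joined, had 1 probe set of 3 that fell. This was 1415684_at, which read 7.87, 7.65 and 7.82 on starved arrays, against 8.21, 8.17 and 8.11 on control arrays. The groups did not overlap, and the difference was −0.39 (SE 0.08, 95% interval −0.57 to −0.20, adjusted p = 0.00451). This fall was called under every scaling, at −0.81 on the poly-A scale. The probe set 1418235_at read 7.25, 7.32 and 7.33 on starved and 7.25, 7.39 and 7.31 on control arrays, a difference of −0.02 (SE 0.07, 95% interval −0.18 to 0.15, adjusted p = 0.877) that was called on the poly-A scale (−0.44). The brightest, 1418236_s_at, read 8.09, 8.02 and 7.98 on starved and 8.16, 8.04 and 8.16 on control arrays, a difference of −0.09 (SE 0.07, adjusted p = 0.372) that passed on the hybridization scale (−0.28) and the poly-A scale (−0.51). Within arrays 1415684_at responded lower than 1418235_at by 0.37 and lower than 1418236_s_at by 0.30, each with an exact p of 0.1 (0.257 adjusted).

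Atg4b encodes the main protease that trims ATG8 proteins before attachment and releases them from the lipid afterwards, and its 2 probe sets were called in opposite directions. The brighter, 1424102_at, read 8.13, 8.16 and 8.02 on starved arrays, against 8.42, 8.41 and 8.31 on control arrays, and fell (difference −0.28, SE 0.08, 95% interval −0.45 to −0.11, adjusted p = 0.0156). The dimmer, 1424103_at, read 7.46, 7.45 and 7.36 on starved arrays and 7.15, 7.05 and 7.03 on control arrays, and rose (difference 0.35, SE 0.07, 95% interval 0.18 to 0.51, adjusted p = 0.0044). Neither probe set had overlapping groups, and within arrays their responses differed by −0.62 (exact p = 0.1, adjusted 0.257). The mean of the pair gave 0.03 (adjusted p = 0.705), so no direction is given for the gene. The annotation cites the same accession for both. The fall lost its call without control replicate 1 (−0.26, adjusted p = 0.0606) or control replicate 2 (−0.26, adjusted p = 0.0598), and the rise on the hybridization scale (0.16) or the poly-A scale (−0.080). Under every scaling of all 6 arrays the fall stayed called, at −0.70 on the poly-A scale.

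Probe sets of 1 gene often differed in call. Of 7 members with several probe sets, 2 had every probe set called in 1 direction (Gabarapl1 and Atg3), 4 had called probe sets beside ones that did not pass (Map1lc3b, Atg7, Atg12 and Atg5) and 1 had opposite calls (Atg4b). Of the 4956 genes with several probe sets 37.3% had calls in 1 direction beside a probe set that did not pass, and 2.68% had opposite calls. Of the 18 pairs of member probe sets 7 reached the smallest exact p, 4 of them in Map1lc3b (2 of these against the dim 1428024_at), 2 in Atg5 and 1 in Atg4b. All 7 had an adjusted p of 0.257, and pairs of 1 gene share probe sets. The share among pairs of other genes was not counted, so no excess is claimed.

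The other measured genes of ATG8 conjugation and release rose or did not pass, with rises in 2 of 5, falls in 0 and a median of 0.18 against −0.05 for all genes (−0.25 against −0.47 for all genes on the poly-A scale, with 0 risen and 3 fallen). In the lists from here on each gene is given by its brightest probe set, and 3 genes of this list were not analysed here. Beside the counts of every list stand 22.1% of all genes risen and 22.0% fallen as deposited. For the poly-A scale the shares at hand are those of probe sets, 6.23% risen and 73.8% fallen. Atg10, the E2-like enzyme that joins ATG12 to ATG5, averaged 6.11 ± 0.14 in starved and 5.52 ± 0.30 in control cells (difference 0.59, SE 0.14, adjusted p = 0.00568). Its call was lost on the poly-A scale (0.17, adjusted p = 0.239). Wipi2, which brings ATG16L1 to the membrane, averaged 8.82 ± 0.18 in starved and 8.40 ± 0.06 in control cells (difference 0.42, adjusted p = 0.00464) and lay at −0.0040 on the poly-A scale. This rise rests on the brighter of its 2 probe sets, and their mean gave 0.04 and did not pass limma's test (adjusted p = 0.637). Atg16l1 itself averaged 7.30 ± 0.11 in starved and 7.36 ± 0.04 in control cells and did not pass (adjusted p = 0.547). It was called lower on the hybridization scale (−0.25) and on the poly-A scale (−0.49).

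Receptors and adaptors that bind ATG8 proteins rose in 9 of 17 cases, fell in 3 and did not pass in 5, with a median of 0.36. On the poly-A scale 5 rose and 7 fell, with a median of −0.06. Sqstm1, the cargo receptor p62, averaged 12.79 ± 0.01 in starved and 11.80 ± 0.18 in control cells (difference 0.99, SE 0.09, adjusted p = 1.88e-05). Retreg1, a receptor for the endoplasmic reticulum, rose by 0.91 and Tax1bp1, a receptor for ubiquitin-tagged cargo, by 0.84. Among those that fell were Bnip3, a mitochondrial receptor, at −0.46 and Ncoa4, the ferritin receptor, at −0.24. Ncoa4 lost its call without starved replicate 2 (−0.19, adjusted p = 0.0770) and without control replicate 1 (−0.22, adjusted p = 0.0796), 2 (−0.25, adjusted p = 0.0577) or 3 (−0.25, adjusted p = 0.0530), and without any one of these 4 arrays 1 gene of the list fell instead of 3. The rises of Sqstm1, Retreg1 and Tax1bp1 were called on all 4 scales, at 0.56, 0.48 and 0.41 on the poly-A scale.

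Genes upstream of ATG8 attachment, for initiation and membrane growth, rose in 13 of 17 cases, while 1 fell and 3 did not pass, and their median was 0.48 (0.06 on the poly-A scale, where 6 rose and 4 fell). Rb1cc1, the scaffold of the ULK kinase complex, rose by 1.23 (adjusted p = 6.13e-07) and the kinase Ulk1 by 1.00 (8.17 ± 0.31 in starved and 7.16 ± 0.13 in control cells, adjusted p = 0.000242). Wipi1, which binds phosphoinositides on the new membrane, rose by 0.94, but the gene lay at −0.17 (adjusted p = 0.236) when probe sets that can bind several transcripts were left out. Nrbf2, a subunit of the lipid kinase complex that marks the membrane, fell by 0.34. Genes for fusion with the lysosome rose in 6 of 10 cases and fell in 2, with a median of 0.30 that was −0.12 on the poly-A scale, where 0 rose and 4 fell. The tethering subunit Vps16 rose by 0.52 and the membrane fusion protein Stx17 by 0.40. Both lost their call on the poly-A scale (0.09 and −0.03). The tethering subunit Vps18 fell by 0.34 and the fusion protein Ykt6 by 0.33.

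Other ubiquitin-like conjugation systems, which attach UFM1, NEDD8, SUMO or URM1 to proteins, had rises in 2, falls in 6 and no call in 7 of the 15 measured genes, with a median of −0.17. On the hybridization scale 1 rose and 10 fell, where 12.7% of all probe sets rose and 46.8% fell. With poly-A centring 0 rose and 13 fell, where 6.23% of all probe sets rose and 73.8% fell. The list median was then −0.60, against −0.47 for all genes. Nae1, a subunit of the E1 for NEDD8, rose by 0.55 and the SUMO protease Senp6 by 0.37. Both lost their call on the poly-A scale (0.13 and −0.05). The UFM1 protease Ufsp1 fell by 1.28 to 4.24 ± 0.16 in starved cells, against 5.52 ± 0.39 in control cells. Ube2f, an E2 for NEDD8, fell by 0.59. Of 6 transcription factors known to act on autophagy genes 2 rose and 4 did not pass, while 0 rose and 3 fell on the poly-A scale. Mitf rose by 0.62 and Foxo3, which raises autophagy genes in mouse muscle, by 0.54, and both lost their call on the poly-A scale (0.20 and 0.12). Tfeb, the best known activator of lysosomal and autophagy genes, averaged 7.15 ± 0.12 in starved and 6.99 ± 0.12 in control cells and did not pass (difference 0.17, adjusted p = 0.159).

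**Figure D3:**
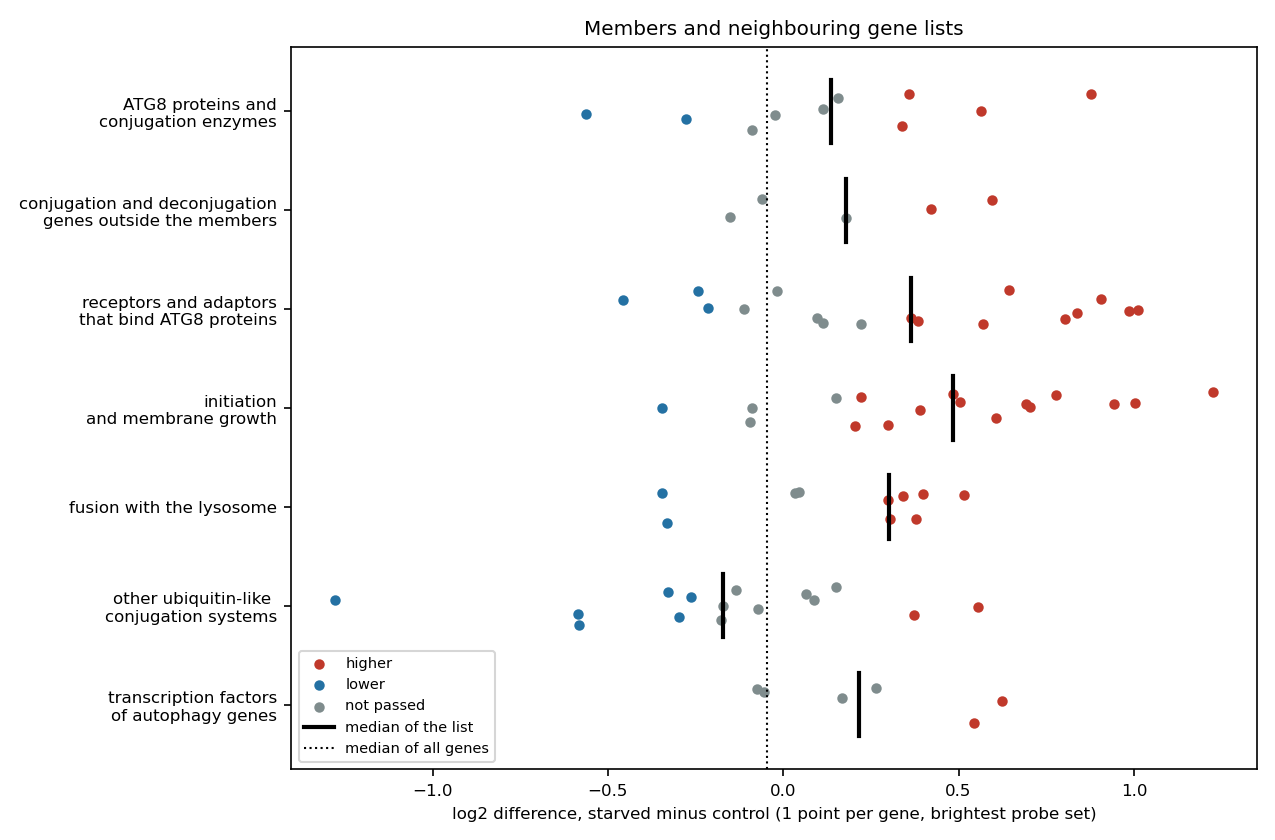
Log2 difference, starved minus control (x axis), of each measured gene by its brightest probe set, for the 10 members and the 6 gene lists (rows), coloured by call, with the list median (thick bar) and the median of all genes (dotted line). In the deposited scaling the medians of the initiation list (0.48) and the receptor list (0.36) lie furthest above that of all genes, and on the poly-A scale they lie at 0.06 and −0.06, with the median of all genes at −0.47.

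The genes whose profiles over the 6 arrays lay nearest to that of the brightest Gabarapl1 probe set, 1416419_s_at, were Khdc4, Cyth2, an exchange factor for ARF GTPases, and Ell, a transcription elongation factor. Their root mean square distances after centring each profile on its mean were 0.0338, 0.0412 and 0.0488, and they rose by 0.86, 0.90 and 0.85. Genes picked by nearness have differences close to that of their target by construction, here and for Map1lc3b below. Nearest to the brightest Map1lc3b probe set were Gpx8, an enzyme of the endoplasmic reticulum related to glutathione peroxidases, at 0.0330, the mitochondrial protein gene Nipsnap2 at 0.0344 and Fam174a at 0.0361. Their differences of 0.17, 0.12 and 0.21 did not pass, and those of Gpx8 (0.24, adjusted p = 0.0405) and Fam174a (0.29, adjusted p = 0.0191) passed without starved replicate 2.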

How the data were processed

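Gene expression in 3 starved and 3 control MEF samples was measured with short-oligonucleotide arrays, 1 sample per array, from total RNA labelled as biotinylated cRNA, per the labels' protocols. The authors deposited log2 values per probe set, made with affy and RMA per the submitters' processing notes with versions not given in the sources used here. The RMA method subtracts background, equalises the distributions of the arrays and summarises the probes of a set. A shift of total RNA per cell is therefore removed, and differences of dim probe sets tend to be compressed. Arrays have no read depth, so precision is limited by their number.

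Gene names were taken from the annotation of the platform. Of 22690 probe sets 64 were array controls, 691 had several genes and 1555 none listed, and all of these were left out, which left 20380. A two-sided moderated test (limma 3.58.1, R 4.3.3) without covariates was fitted to all 6 arrays, and p-values were adjusted by Benjamini-Hochberg across the 20380 probe sets and called below 0.05. No probe set was filtered for low values, so all 22 members were tested. Lists were described in a fit of 12393 genes, each by its brightest probe set over all arrays. Within-gene pairs of probe sets were compared by the exact two-sided permutation test on their differences within arrays. Named genes are all members, up to 2 risen and 2 fallen genes of each list with the smallest adjusted p, Sqstm1, Ulk1, Atg16l1, Tfeb and Foxo3, and the 3 genes nearest in profile to Map1lc3b and to Gabarapl1. Members and lists were chosen with earlier results of these data known. Poly-A spike-ins were the dap, lys, phe and thr probe sets. Promoter windows came from RefSeq. Promoter searches and plots used Python 3.11.15, pandas 2.3.3 and matplotlib 3.10.9.

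The fit was tested on simulated arrays in which 200 of 20380 probe sets were changed. It recovered 1.8% of changes of 0.25, 53% of 0.5 and 91.6% of 1, and 3.68% of its calls were false. In the data 40.9% of probe sets were called, so these recovery rates do not carry over directly. A probe set that did not pass is not thereby shown to be unchanged. Alternatives were other scalings, a further quantile normalization, trend and robust settings, array weights, the replicate number as a block, stricter thresholds, filters on probe sets, averaging the probe sets of each gene and leaving out each array.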

Additional observations from a re-analysis of the deposited data

How the results depend on the processing

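With each array left out in turn, 8 to 9 of the 22 member probe sets rose and 3 to 4 fell. Of the 70 measured genes of the 6 pathway lists, 30 to 35 (34 in the deposited scaling) rose and 8 to 12 fell. Over all 20380 probe sets 3478 to 4116 rose and 3255 to 4118 fell. Among the receptors 1 to 3 fell, and Ncoa4 ranged from −0.27 to −0.19. With the replicate number as a block 8 member probe sets rose and 4 fell, and 33 list genes rose and 11 fell. Of all probe sets 3954 then rose and 3844 fell. The block ended the call of 1428611_at of Atg7 (adjusted p = 0.0578) and of no other member. The labels do not say whether same-numbered starved and control arrays were paired. Their deviations from the group means correlated at −0.048, −0.012 and −0.029, and those of arrays with unlike numbers at −0.040 to 0.061. With 3 arrays per group these values cannot settle the pairing. Of the 13 called member probe sets, 5 (both of Gabarapl1, both of Atg3 and 1415929_at of Map1lc3b) kept their call under every alternative that tested them (17, or 16 for 1416419_s_at of Gabarapl1 and 1418179_at of Atg3, which a filter on probe sets left out), and 7 did so when the spike-in centrings are set aside, which adds Map1lc3a and 1415928_a_at of Map1lc3b. When limma tested against a minimum fold of 1.2 (treat), 5 member probe sets rose and 2 fell, and 18 list genes rose and 4 fell. At an adjusted p of 0.01, 7 list genes fell. By genes, 4 members rose and 2 fell with the brightest probe set, and 5 rose and 1 fell with the mean of the probe sets. In each of these the stricter rule or the smaller number of units lowers the count.

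With the hybridization spike-ins 5 member probe sets and 22 list genes rose, and 22 list genes fell. With the poly-A spike-ins 3 member probe sets rose and 10 fell, and 11 list genes rose and 34 fell. Over all probe sets these centrings gave 2581 rises and 9548 falls, and 1269 rises and 15042 falls, against 4156 and 4183 as deposited. Treat gave 1972 and 1520, an adjusted p of 0.01 gave 2680 falls, and probe sets of the types specific to 1 transcript alone gave 2751 and 2740. The spike-in centrings each subtract 1 value per array, so their error is shared by all probe sets.

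These differences changed sign. With the hybridization spike-ins they were −0.031 and −0.062 for 1415930_a_at and 1428024_at of Map1lc3b, −0.073 for Gabarapl2, −0.021 for Tfeb, −0.013 for Gpx8 and −0.068 for Nipsnap2. With the poly-A spike-ins they were −0.27 and −0.30 for the same Map1lc3b probe sets, −0.31 for Gabarapl2, −0.080 for 1424103_at of Atg4b, −0.24, −0.19 and −0.089 for 1428610_at, 1428611_at and 1428612_at of Atg7, and −0.17, −0.20 and −0.067 for 1439457_x_at, 1451746_a_at and 1451747_a_at of Atg12. With the same spike-ins Tfeb lay at −0.26, Wipi2 at −0.0040, Stx17 at −0.027, Senp6 at −0.052, Gpx8 at −0.25, Nipsnap2 at −0.31 and Fam174a at −0.21. Wipi1 lay at −0.17 when probe sets that can bind several transcripts were left out, since its brightest probe set is of that type. With single arrays left out, 1428024_at of Map1lc3b ranged from −0.064 to 0.24, Gabarap from −0.060 to 0.0082 and 1418235_at of Atg5 from −0.049 to 0.020, and none of these passed the test.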
